A study of Mus musculus with 15 samples.

Results

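Freshly sorted hematopoietic stem cells (HSCs) of mice at day 4 after 5-fluorouracil (5-FU) were set against HSCs of untreated mice, 4 libraries each, chosen by their labels from the 15 libraries of the series. Both groups came from the bone marrow of wild type C57BL/6 mice aged 8-10 weeks, and no transgene or other agent is named for either. Each library was made from 100 sorted cells by Nextera XT tagmentation, a strandless protocol, so an antisense partner cannot be told apart from its gene. The sources used here state neither the dose of 5-FU nor the sort gate, and the labels do not say that replicates came from separate animals, so p-values measure the spread between these libraries only.

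5-FU is a pyrimidine analog that cells convert into nucleotides which block thymidylate synthase and enter RNA and DNA. It kills dividing blood progenitors, and the HSCs that survive leave quiescence and divide to rebuild the marrow. A quiescent HSC is small, makes little protein and is held in the niche by cytokine, adhesion and transcription programs, whereas a cell that enters the cycle enlarges its machinery for making, folding and moving RNA and protein. Across all genes, the cycle and energy genes themselves are the most familiar part of that change. Of 267 listed cell cycle genes tested, 252 were called higher after 5-FU (94.4%), against 26.7% of all genes. The families described here were chosen beyond these lists but keep members tied to the cycle, such as Rrm2 and Tk1. Their changes were not separated from those of the cycle.

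Between 9775640 and 17397392 exon reads were counted per 5-FU library and between 6171730 and 16685285 per untreated library. Genes of the HSC surface were read in every library. Kit had 771, 738, 812 and 886 CPM (exon read counts on the usual per-library scale, after TMM scaling) in 5-FU HSCs, against 1235, 1336, 1096 and 1233 CPM in untreated HSCs. Ly6a, which encodes Sca-1, had 77.1 to 128 CPM in 5-FU HSCs and 93.3 to 118 CPM in untreated HSCs, and Slamf1, which encodes CD150, had 36.0 to 39.6 CPM in 5-FU HSCs and 27.7 to 46.5 CPM in untreated HSCs. Both overlapped between the groups. Procr, or EPCR, had 69.6, 58.2, 67.4 and 84.6 CPM after 5-FU and 105, 88.7, 92.3 and 89.1 CPM in untreated HSCs, and Cd34 had 88.7 to 104 CPM after 5-FU and 108 to 177 CPM in untreated HSCs. Of the 18 HSC markers tested, 12 were lower (66.7%) and 0 higher after 5-FU, against 23.8% lower and 26.7% higher over all genes. Their median log2 fold change was -0.34. Ptprc, the pan-leukocyte CD45, had 537 to 572 CPM after 5-FU and 546 to 663 CPM in untreated HSCs. Cd48, whose protein is absent from the usual HSC gate, stayed at 1.48 to 3.8 CPM after 5-FU and 1.09 to 3.33 CPM in untreated HSCs.

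Reads of other marrow cells were present and uneven. The summed level of 16 mesenchymal stroma markers was 35.5, 27.4, 27.1 and 448 CPM in 5-FU replicates 1 to 4, and 224, 2000, 19.1 and 474 CPM in untreated replicates 1 to 4. The niche chemokine Cxcl12, among these markers, was at 0.178, 0, 0.623 and 290 CPM in 5-FU HSCs and 103, 1220, 0.662 and 229 CPM in untreated HSCs. The leptin receptor Lepr of the same stroma had 0.296, 1.17, 0.374 and 30.0 CPM in 5-FU HSCs and 35.2, 280, 1.08 and 56.9 CPM in untreated HSCs. The 13 endothelial markers summed to 220 to 264 CPM after 5-FU and 1050, 264, 279 and 553 CPM in untreated replicates 1 to 4, and the sinusoidal receptor Stab2 had 1.19 to 8.17 CPM in 5-FU HSCs against 318, 1.72, 1.44 and 95.1 CPM in untreated HSCs. Cdh5, the endothelial cadherin, and Kdr, the VEGF receptor, were highest in the same untreated libraries, 1 and 4. The 14 macrophage markers summed to 114 to 206 CPM in 5-FU HSCs and 58.6 to 407 CPM in untreated HSCs.

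Red cell transcripts split by globin. The alpha globin genes Hba-a1 and Hba-a2, which are near-identical copies, had 0 reads in all 4 libraries after 5-FU. In untreated HSCs Hba-a1 had 12.6, 360, 0 and 372 CPM, nearly all of it in replicates 2 and 4. With reads pooled per group and 3 reads over the whole 5-FU group taken as the floor, Hba-a1 was at least 2760-fold lower after 5-FU. Hba-a1 was not among the genes tested, and its groups overlapped, because untreated replicate 3 also had 0 CPM. The beta globin gene Hbb-bt, however, had 307, 286, 252 and 344 CPM in the same 5-FU libraries, against 32.2, 558, 80.4 and 604 CPM in untreated HSCs, and its close copy Hbb-bs had 2.06 to 13.3 CPM after 5-FU and 15.5, 755, 1.38 and 955 CPM in untreated HSCs. Floors of this kind cover counting error only. In cells sorted in bulk, fewer cells of a type and less RNA per cell cannot be told apart.

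**Figure D1:**
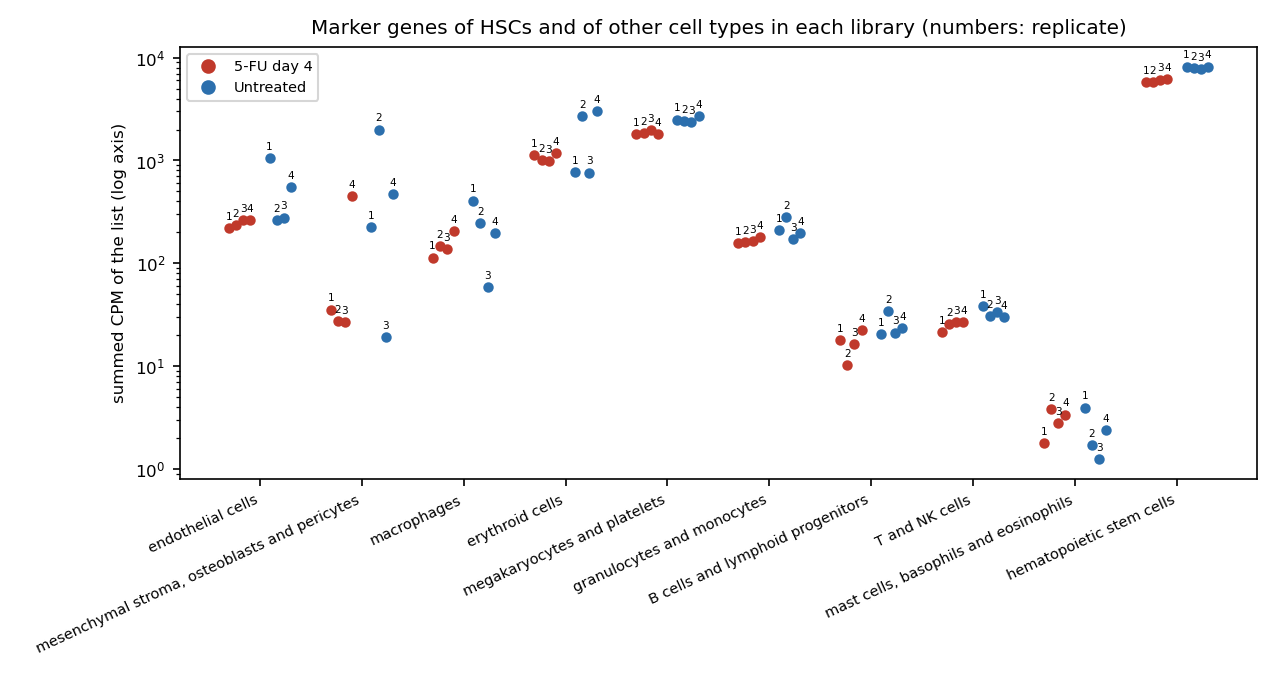
Summed CPM of marker genes (log axis) of HSCs and of 9 other cell types in each library, with 5-FU day 4 in red and untreated in blue and the replicate number above each point. Mesenchymal markers reach 448 CPM in 5-FU replicate 4 and 2000 CPM in untreated replicate 2, and lie at 19.1 CPM in untreated replicate 3.

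Of 13384 genes tested with edgeR's quasi-likelihood test, 26.7% were higher after 5-FU and 23.8% were lower at an adjusted p of 0.05 or less, so counts within a family are read against those shares. The direction of change followed exon length. Among genes with under 1000 exon bases, 45.4% were higher and 8.44% lower after 5-FU, and among genes in the longest class, the last in the plot of calls by exon length, 18.1% were higher and 37.3% lower. Exon reads also made up 30.0% to 31.9% of the read total behind the deposited RPKM values in 5-FU libraries, against 25% to 26.3% in untreated libraries. Scaling to that total moved the median log2 fold change of all genes to 0.17, from -0.02, and left 1844 genes lower in place of 3185. The mesenchymal marker sum was highest among 5-FU libraries in replicate 4 and lowest among untreated libraries in replicate 3. Of the genes called lower, 96.7% were also lower in 5-FU replicate 4 than in untreated replicate 3. Both libraries had been used for the call, so a high share was largely fixed in advance and is no check on stromal reads. That share was 12 of 15 among the integrins and adhesion molecules, 8 of 10 among the Hox, Meis and Pbx genes, 19 of 23 among the cytokine and growth factor receptors and 5 of 6 among the pyrimidine enzymes called lower. These lists are short, and the part of stromal reads in them was not tested.

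**Figure D2:**
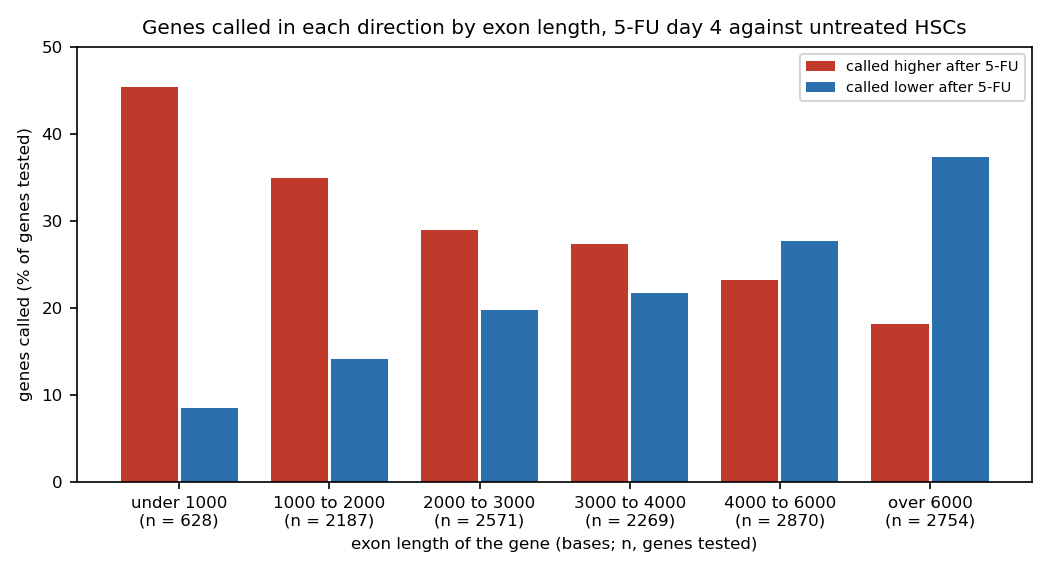
Share of genes called higher (red) and lower (blue) after 5-FU by exon length in bases, with the number of genes tested in each class. The share called higher is 45.4% in the shortest class and 18.1% in the longest, and the share called lower is 8.44% and 37.3%.

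The genes of nuclear transport rose almost as a whole. Of 52 nuclear pore and karyopherin genes, 49 were higher after 5-FU and 0 were lower, with a median log2 fold change of 0.69 against -0.02 over all genes. Kpna2, an importin alpha that carries proteins into the nucleus (mm10 chromosome 11, 106988629 to 106999525), had 320, 292, 167 and 204 CPM in 5-FU HSCs, against 23.5, 16.8, 58.3 and 18.5 CPM in untreated HSCs. The groups did not overlap, as in 47.3% of all genes (25.8% higher and 21.5% lower after 5-FU), and the log2 fold change was 3.03 ± 0.38 (SE; adjusted p = 9.46e-05), or 3.70 without untreated replicate 3 and 5-FU replicate 4. Untreated replicate 3 had the most Kpna2 of the untreated libraries, so leaving it out raises the fold change and is no check on it. Ran, the small GTPase that sets the direction of transport (chromosome 5, 129020156 to 129024322), had 843, 790, 719 and 737 CPM in 5-FU HSCs and 299, 302, 354 and 268 CPM in untreated HSCs.

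The regulators of the Ran cycle moved with it. Rcc1, its exchange factor on chromatin, averaged 44.2 ± 3.18 CPM in 5-FU HSCs and 13.1 ± 4.36 CPM in untreated HSCs (SD, n = 4 each; log2 fold change 1.74 ± 0.21, adjusted p = 7.18e-05). Rangap1, which triggers GTP hydrolysis, rose by 1.53 and its cofactor Ranbp1 by 1.46 on the log2 scale. Among the structural genes of the pore, the membrane anchor Ndc1 had 170 to 185 CPM after 5-FU and 39.5 to 65.3 CPM in untreated HSCs, and Nup93 of the inner ring had 94.6 to 105 CPM after 5-FU and 33.1 to 41.2 CPM in untreated HSCs. Nup205 rose by 1.09 and the importin Ipo5 by 1.12. The nuclear lamina changed alongside: Lmnb1, which encodes lamin B1, had 168 to 189 CPM in 5-FU HSCs and 31.3 to 59.5 CPM in untreated HSCs (log2 fold change 1.98 ± 0.16, adjusted p = 8.29e-06), and Lmna, which encodes lamin A and C, had 10.8 to 14.4 CPM in 5-FU HSCs and 2.80 to 5.02 CPM in untreated HSCs (1.82 ± 0.22, adjusted p = 7.26e-05).

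RNA processing genes rose with a minority moving the other way. Of 63 genes of the spliceosome and of SR proteins, 45 were higher and 6 lower after 5-FU, with a median of 0.60, and 3 were lower when scaled to the RPKM read total. Core particles led. Snrpf and Snrpd1, both Sm ring proteins, rose by 1.36 and 1.31, and Lsm2 of the Lsm ring had 42.7 to 48.1 CPM after 5-FU and 18.2 to 19.4 CPM in untreated HSCs (log2 fold change 1.28 ± 0.08, adjusted p = 2.92e-06). The SR proteins parted ways. Srsf10 had 389, 397, 377 and 388 CPM in 5-FU HSCs against 217, 227, 223 and 194 CPM in untreated HSCs, whereas Srsf5 had 177, 174, 179 and 182 CPM in 5-FU HSCs against 275, 257, 279 and 273 CPM in untreated HSCs (log2 fold change -0.61 ± 0.05, adjusted p = 6.67e-06). Neither pair of groups overlapped.

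Of 20 heterogeneous nuclear ribonucleoproteins, which coat nascent transcripts, 17 were higher and 1, Hnrnph3, was lower. Hnrnpf averaged 806 ± 10.6 CPM after 5-FU and 445 ± 30.3 CPM in untreated HSCs, and Hnrnpab rose by 0.92. Hnrnph3 fell to 51.0 ± 4.71 CPM in 5-FU HSCs, against 71.6 ± 8.54 CPM in untreated HSCs.

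The enzymes that charge tRNAs rose together. Of 23 cytosolic aminoacyl-tRNA synthetases and their scaffold proteins, 22 were higher and 0 lower, with a median of 0.63. Gars, the glycyl-tRNA synthetase, had 181, 167, 142 and 156 CPM in 5-FU HSCs and 76.4, 85.0, 83.7 and 72.9 CPM in untreated HSCs (log2 fold change 1.03 ± 0.08, adjusted p = 8.29e-06). Aars and Kars, for alanine and lysine, rose by 0.98 and 0.81. Translation factors were more mixed, with 37 of 65 higher and 10 lower, or 2 lower when scaled to the RPKM read total. The elongation factor Eif5a, which carries the polyamine-derived amino acid hypusine, averaged 702 ± 51.3 CPM after 5-FU and 346 ± 38.1 CPM in untreated HSCs. Eef2k, the kinase that inactivates elongation factor 2, fell to 147 ± 8.55 CPM in 5-FU HSCs against 215 ± 18.6 CPM in untreated HSCs, and the helicase gene Eif4a2 fell by 0.38 on the log2 scale.

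Protein folding and turnover moved in the same direction as synthesis. Of 14 genes of the CCT chaperonin and prefoldin, which fold actin and tubulin, 12 were higher and 1, Pfdn5, was lower, a call that scaling to the RPKM read total removed. Cct8 had 449 to 510 CPM after 5-FU and 224 to 280 CPM in untreated HSCs, and Tcp1 had 423 to 452 CPM after 5-FU and 197 to 266 CPM in untreated HSCs. Of 25 cytosolic heat shock chaperones, 16 were higher and 2 lower. The constitutive chaperone Hspa8 averaged 2852 ± 185 CPM in 5-FU HSCs and 1632 ± 45.2 CPM in untreated HSCs, and Hsp90aa1 averaged 1541 ± 73.4 CPM after 5-FU and 787 ± 52.2 CPM in untreated HSCs. Fkbp5, an HSP90 cochaperone and glucocorticoid target, rose by 1.10, whereas the stress-inducible Dnajb1 fell by 0.77 on the log2 scale.

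Of 49 proteasome subunits and assembly factors, 43 were higher and 1 lower, with a median of 0.73. Psmd14, the deubiquitinase of the lid, had 143, 144, 119 and 132 CPM in 5-FU HSCs and 62.5, 61.6, 72.3 and 57.3 CPM in untreated HSCs, and Psmb5, the chymotrypsin-like subunit, rose by 1.08. The gene that was lower, Psmf1, encodes an inhibitor of the proteasome, and it averaged 38.1 ± 3.75 CPM after 5-FU and 54.8 ± 3.76 CPM in untreated HSCs (log2 fold change -0.52 ± 0.09, adjusted p = 0.000854). Of 36 enzymes that activate or conjugate ubiquitin and its relatives, 24 were higher and 3 lower. Ube2n, which builds K63-linked chains, rose by 0.83, Ube2s by 1.19 and the SUMO-activating Uba2 by 0.98, and Ube2h fell by 0.69.

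The genes of the ER rose with no member called lower. Of 42 genes of the ER translocon, folding and glycosylation, 36 were higher and 0 lower, with a median of 0.58, although 1 was lower after correction for exon length. Rpn1 of the oligosaccharyltransferase had 159, 169, 140 and 153 CPM after 5-FU and 66.3, 60.8, 82.5 and 69.7 CPM in untreated HSCs. Sdf2l1 rose by 1.33, the lectin chaperone Canx by 0.60 and its partner Calr by 0.56. Of 23 genes of the COPI and COPII coats, which bud vesicles at the Golgi and the ER, 15 were higher and 2 lower, or 0 lower when scaled to the RPKM read total and after correction for exon length.

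**Figure D3:**
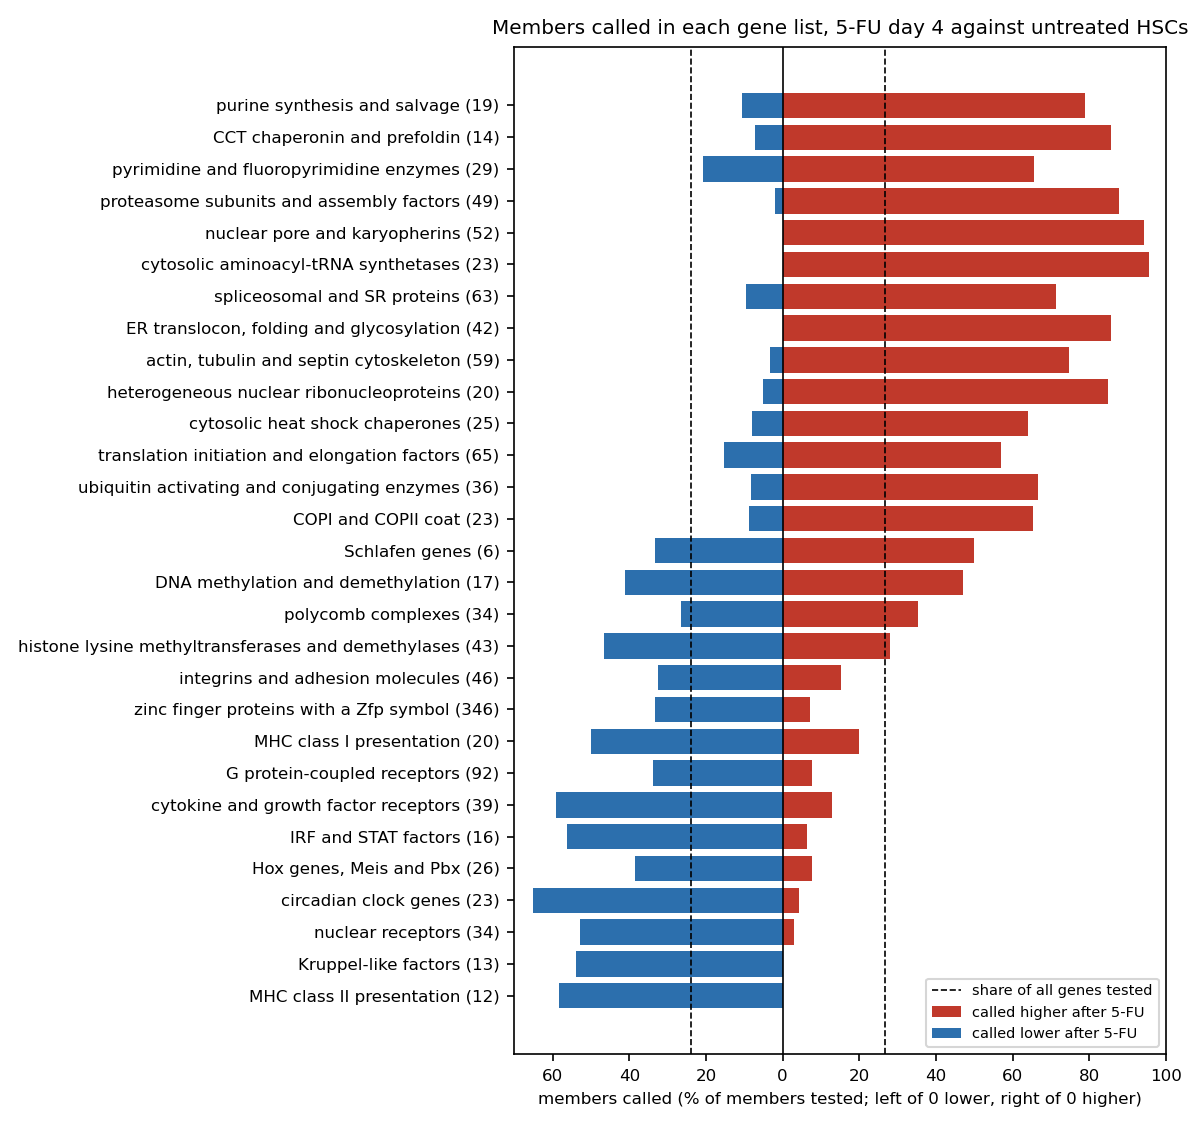
Share of the tested members of 29 gene lists called higher (red, right) and lower (blue, left) after 5-FU, ordered by median log2 fold change, with the number tested in parentheses. Dashed lines mark the shares over all genes tested, 26.7% and 23.8%.

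The enzymes that handle pyrimidines, and with them 5-FU, changed by role. Of 29 tested members, 19 were higher and 6 lower, with a median of 0.74, and 3 were lower when scaled to the RPKM read total. Tyms, thymidylate synthase and the main target of the drug (chromosome 5, 30038546 to 30073625), had 127, 143, 178 and 148 CPM in 5-FU HSCs and 41.7, 33.2, 56.7 and 27.2 CPM in untreated HSCs. Tk1, which salvages thymidine, had 58.7 to 79.3 CPM after 5-FU and 9.67 to 16.2 CPM in untreated HSCs (log2 fold change 2.48 ± 0.17, adjusted p = 4.01e-06). The genes that remove uracil from the DNA precursor pool and from DNA also rose. Dut, which hydrolyses dUTP, averaged 152 ± 2.33 CPM in 5-FU HSCs and 44.7 ± 12.4 CPM in untreated HSCs, and the uracil glycosylase Ung averaged 30.8 ± 0.755 CPM after 5-FU and 9.60 ± 2.01 CPM in untreated HSCs.

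The genes of the routes that activate 5-FU did not move together. Umps, which joins the base to phosphoribose, had 148, 128, 133 and 139 CPM in 5-FU HSCs against 68.7, 62.9, 82.0 and 65.4 CPM in untreated HSCs. Upp1, the uridine phosphorylase of another route (chromosome 11, 9118008 to 9136170), had 8.30, 7.42, 6.61 and 4.55 CPM in 5-FU HSCs against 17.7, 17.2, 15.4 and 20.8 CPM in untreated HSCs. The groups of Umps and Upp1 were apart, in opposite directions, and the log2 fold change of Upp1 was -1.41 ± 0.20 (adjusted p = 0.000191). The uridine kinase Uck2, of the same route as Upp1, rose by 0.64. Tymp, thymidine phosphorylase, had 1.38 to 3.08 CPM after 5-FU and 0.784 to 2.86 CPM in untreated HSCs and did not pass the test (adjusted p = 0.65). Dpyd, which degrades 5-FU, was too low to test, at 0 to 0.883 CPM after 5-FU and 0 to 0.545 CPM in untreated HSCs. Subunits of ribonucleotide reductase split too. Rrm2, used in S phase, had 108 to 148 CPM in 5-FU HSCs and 4.63 to 17.3 CPM in untreated HSCs, while Rrm2b, its partner outside S phase and a p53 target, averaged 39.0 ± 5.24 CPM after 5-FU and 65.5 ± 9.80 CPM in untreated HSCs (log2 fold change -0.75 ± 0.13, adjusted p = 0.00068).

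Purine synthesis rose along its length. Of 19 genes, 15 were higher and 2, Adssl1 and Xdh, were lower, with a median of 0.82. Ppat, the first committed enzyme, had 192, 200, 173 and 205 CPM in 5-FU HSCs and 93.9, 93.7, 91.7 and 78.2 CPM in untreated HSCs, and Pfas rose by 1.17. Pnp, which splits purine nucleosides, averaged 478 ± 16.9 CPM after 5-FU and 216 ± 12.1 CPM in untreated HSCs (log2 fold change 1.15 ± 0.05, adjusted p = 1.01e-06). Xdh, which makes uric acid, had 1.27 to 6.23 CPM after 5-FU and 5.60 to 20.4 CPM in untreated HSCs, with overlap.

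The promoter of Ppat is one that holds the E2F letters TTTCCCGC, and 2 polycomb genes described further on, Phf19 and Suz12, hold them too. The 250 bases before the RefSeq start (GRCm38.p6) are printed in lower case with the motif, on either strand, in capitals, to show where it lies. The Ppat window is chr5:76951579-76951828 on the minus strand, with motifs beginning 211 and 158 bases before the start. The Phf19 window is chr2:34913977-34914226 on the minus strand and the Suz12 window chr11:79992856-79993105 on the plus strand, with motifs beginning 208 and 219 bases before the start. The RefSeq start of Phf19 lies inside the gene span of the files.
Ppat: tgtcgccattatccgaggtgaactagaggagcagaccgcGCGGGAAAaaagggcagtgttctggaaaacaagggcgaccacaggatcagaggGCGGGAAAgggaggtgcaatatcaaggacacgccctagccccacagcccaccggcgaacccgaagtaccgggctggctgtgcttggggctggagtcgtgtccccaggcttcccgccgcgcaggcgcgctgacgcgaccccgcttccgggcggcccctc
Phf19: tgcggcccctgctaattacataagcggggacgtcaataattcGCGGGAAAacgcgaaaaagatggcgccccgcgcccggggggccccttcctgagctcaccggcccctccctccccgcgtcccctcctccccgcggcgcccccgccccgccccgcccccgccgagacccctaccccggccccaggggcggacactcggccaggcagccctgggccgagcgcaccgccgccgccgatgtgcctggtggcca
Suz12: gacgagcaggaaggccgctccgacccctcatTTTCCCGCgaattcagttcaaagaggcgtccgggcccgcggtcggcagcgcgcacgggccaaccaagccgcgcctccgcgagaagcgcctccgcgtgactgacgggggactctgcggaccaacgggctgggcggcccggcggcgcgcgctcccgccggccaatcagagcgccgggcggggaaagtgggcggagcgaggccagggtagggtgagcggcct
Over the 300 bases around the start of 10191 tested genes with a window, TTTCCCGC was found on either strand in 3.85% of genes higher after 5-FU, 1.47% of genes lower and 2.08% of all. A second E2F spelling, TTTGGCGC, was found in 1.80% of genes higher, 0.571% of genes lower and 1.01% of all. The letters TTTGAA of the cell cycle homology region were found in 13.8% of genes higher, 10.5% of genes lower and 12.1% of all, and CCAAT in 41.0% of genes higher, 39.3% of genes lower and 38.9% of all. A match is a description of these letters only.

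The cytoskeleton rose with a few exceptions. Of 59 actin, tubulin, septin and lamin genes, 44 were higher and 2, the septins Sept4 and Sept1, were lower, or 1 when scaled to the RPKM read total. Tuba1b had 1592, 1535, 1480 and 1413 CPM in 5-FU HSCs and 469, 470, 695 and 460 CPM in untreated HSCs, where replicate 3 stood above the others. Vim, the intermediate filament vimentin, averaged 435 ± 23.1 CPM after 5-FU and 196 ± 19 CPM in untreated HSCs (log2 fold change 1.15 ± 0.07, adjusted p = 2.92e-06). Actb rose by 0.79, the actin-severing Cfl1 by 1.02 and the tropomyosin Tpm4 by 1.73. Sept4, a septin with an isoform that acts in apoptosis, had 0.296 to 3.46 CPM after 5-FU and 4.09 to 9.33 CPM in untreated HSCs (log2 fold change -2.02 ± 0.60, adjusted p = 0.0164), or -2.74 without untreated replicate 3 and 5-FU replicate 4. Those were the untreated library with the least Sept4 and the 5-FU library with the most, so a larger fall was fixed in advance.

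Several surface and secreted proteins with single large changes stood out by the naming rule or beside it. Selp, P-selectin, known from platelets and endothelium (chromosome 1, 164115264 to 164150026), had 79.8, 61.9, 57.7 and 64.6 CPM in 5-FU HSCs against 20.8, 5.49, 7.52 and 14.3 CPM in untreated HSCs (log2 fold change 2.41 ± 0.32, adjusted p = 0.000153). Summed megakaryocyte markers were 1810 to 1980 CPM in the 5-FU libraries and 2360 to 2710 CPM in the untreated libraries, and endothelial markers are given above. The leukocyte integrin Itgb2 averaged 87.7 ± 4.77 CPM after 5-FU and 38.1 ± 4.37 CPM in untreated HSCs, and Cd44 and Itgb1 rose by 0.49 and 0.48. Among 46 integrins and adhesion molecules as a list, however, 7 were higher and 15 lower, a balance that turned to 12 higher and 8 lower when scaled to the RPKM read total, and 9 were lower without 5-FU replicate 1.

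The galectin Lgals1 had 52.3, 46.1, 39.4 and 64.8 CPM in 5-FU HSCs and 9.93, 8.46, 8.43 and 7.42 CPM in untreated HSCs (log2 fold change 2.56 ± 0.17, adjusted p = 3.23e-06). Tgfb1, the cytokine that holds HSCs in quiescence in the niche, averaged 130 ± 9.18 CPM after 5-FU and 54.8 ± 3.45 CPM in untreated HSCs. Id1, a BMP and TGF-beta target, had 6.05 to 11.2 CPM after 5-FU and 0.477 to 4.08 CPM in untreated HSCs. Of 37 TGF-beta and BMP pathway genes tested, however, 17 were lower (45.9%) and 5 higher (13.5%), against 23.8% and 26.7% of all genes. The Eph receptor Epha2 had 8.66 to 12 CPM in 5-FU HSCs and 0.817 to 1.57 CPM in untreated HSCs. Periostin, Postn, listed here as a mesenchymal marker, had 24, 12.6, 14.2 and 12.8 CPM after 5-FU and 1.05, 3.76, 0.361 and 1.23 CPM in untreated HSCs. Of 12 mesenchymal markers tested, Postn was the 1 called higher, and 3 were called lower. The 5-FU libraries with Cxcl12 at or near 0 also held Postn reads, and the cell type that gave them was not tested.

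Damage-linked genes among the largest rises were Zmat3, an RNA-binding p53 target, with 101, 104, 63.9 and 93.0 CPM in 5-FU HSCs against 20, 16.5, 21.8 and 19.3 CPM in untreated HSCs, and Rad54b, a recombination translocase, with 46.8 to 57.7 CPM after 5-FU and 9.46 to 14.7 CPM in untreated HSCs. Neither overlapped. Ankle1, a nuclease that cuts DNA bridges between daughter cells, rose by 3.27 ± 0.57 (SE) on the log2 scale, or by 4.36 without untreated replicate 3. That library had the most Ankle1 of the untreated group (15.5 CPM), so a larger rise without it was fixed in advance. Rrm2b, described above as a p53 target, fell by 0.75 on the log2 scale. The genes called p53 targets here therefore moved in both directions. Whether the rises of Zmat3, Rad54b and Ankle1 follow damage or the cell cycle was not tested.

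The Schlafen genes, a mouse cluster on chromosome 11 named for growth arrest in T cells, moved in both directions. Of 6 tested, 3 were higher and 2 lower, against 26.7% higher and 23.8% lower over all genes. A list this short cannot tell such a mix from that of all genes. Slfn9 had 388, 412, 425 and 362 CPM in 5-FU HSCs and 104, 77.4, 132 and 60.2 CPM in untreated HSCs (log2 fold change 2.08 ± 0.20, adjusted p = 1.85e-05). Slfn3 averaged 41.3 ± 2.30 CPM after 5-FU and 19.9 ± 2.75 CPM in untreated HSCs. Slfn2 rose by 0.94, but its adjusted p was 0.157 when copies on alternate scaffolds were left unsummed. Slfn5 had 22.2, 20.1, 27.4 and 41.5 CPM in 5-FU HSCs against 72.6, 65.5, 49.5 and 56.4 CPM in untreated HSCs (log2 fold change -1.13 ± 0.21, adjusted p = 0.00135), and Slfn8 fell by 0.60. These genes are similar in sequence, and reads of close copies may be split between them.

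Among the families that were lower, the circadian clock had 65.2% of its members called lower, against 23.8% of all genes. Of 23 clock genes, 15 were lower and 1 was higher after 5-FU, with a median log2 fold change of -0.58. The period gene Per1, a repressor of the clock (chromosome 11, 69095138 to 69109965), had 65.8, 68.8, 119 and 71.6 CPM in 5-FU HSCs against 219, 245, 251 and 358 CPM in untreated HSCs (log2 fold change -1.72 ± 0.21, adjusted p = 7.77e-05). Per3 had 73.5, 77.2, 73.9 and 78.1 CPM after 5-FU and 138, 145, 114 and 148 CPM in untreated HSCs, and Per2 fell by 0.59, which was not called when scaled to the RPKM read total (adjusted p = 0.0546). The repressor Cry2 averaged 17.2 ± 1.51 CPM after 5-FU and 28.4 ± 2.73 CPM in untreated HSCs.

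All 3 PAR bZIP output factors, which bind D-box elements, were lower. Tef had 18.6, 17.8, 16.5 and 23 CPM in 5-FU HSCs and 46.4, 43.1, 33.7 and 36.2 CPM in untreated HSCs, Dbp had 2.80 to 3.82 CPM after 5-FU and 5.33 to 8.24 CPM in untreated HSCs, and Hlf, also a stem cell factor, fell by 0.84 on the log2 scale. The nuclear receptors of the second loop fell as well. Nr1d2, or REV-ERB beta, averaged 71.5 ± 11.8 CPM after 5-FU and 122 ± 20.4 CPM in untreated HSCs, and Rora averaged 101 ± 17.1 CPM after 5-FU and 205 ± 30.5 CPM in untreated HSCs. The activators differed less between the groups. Clock had 114 to 130 CPM after 5-FU and 139 to 144 CPM in untreated HSCs (log2 fold change -0.20 ± 0.05, adjusted p = 0.00842), a difference that changed sign to 0.03 after correction for exon length, and Arntl, which encodes BMAL1, had 19.1 to 24.6 CPM after 5-FU and 23.9 to 31.3 CPM in untreated HSCs (adjusted p = 0.0812). The member that rose was the repressor Bhlhe41, at 1.09 to 2.06 CPM after 5-FU and 0.181 to 0.817 CPM in untreated HSCs. The sources used here do not state the time of day at which cells were taken.

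The promoters of 3 of these genes are shown because they hold elements of the clock itself, the E-box CACGTG bound by the activators in Per1 and Tef, and the D-box TTATGTAA bound by the output factors in Per3. Each line gives the 250 bases before the RefSeq start (GRCm38.p6), with the motif in capitals. The RefSeq starts of Per1 and Per3 lie inside the gene spans of the files. The Per1 window is chr11:69098699-69098948 on the plus strand, the Tef window chr15:81802423-81802672 on the plus strand and the Per3 window chr4:151044666-151044915 on the minus strand. The E-box begins 166 bases before the start in Per1 and 127 bases in Tef, and the D-boxes of Per3 begin 205 and 158 bases before it.
Per1: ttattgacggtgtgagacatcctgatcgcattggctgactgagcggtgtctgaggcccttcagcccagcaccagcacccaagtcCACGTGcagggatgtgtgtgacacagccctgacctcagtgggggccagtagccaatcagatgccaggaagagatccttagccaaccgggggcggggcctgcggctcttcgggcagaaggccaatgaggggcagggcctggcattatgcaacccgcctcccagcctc
Tef: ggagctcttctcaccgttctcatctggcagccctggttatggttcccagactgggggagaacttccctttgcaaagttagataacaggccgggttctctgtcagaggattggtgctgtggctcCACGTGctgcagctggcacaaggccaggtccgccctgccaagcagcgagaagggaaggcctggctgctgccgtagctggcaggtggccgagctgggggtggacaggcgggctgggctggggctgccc
Per3: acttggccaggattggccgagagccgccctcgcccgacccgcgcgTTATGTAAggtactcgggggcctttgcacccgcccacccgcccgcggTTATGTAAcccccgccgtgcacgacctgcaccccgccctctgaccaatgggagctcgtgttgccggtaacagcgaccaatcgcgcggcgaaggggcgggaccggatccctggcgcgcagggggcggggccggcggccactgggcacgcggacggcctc
These matches describe the letters only. Over all 10191 windows, read on both strands, CACGTG was found in 12.3% of genes higher after 5-FU, 9.17% of genes lower and 10.0% of all, and TTATGTAA in 0.431% of genes higher, 0.489% of genes lower and 0.52% of all.

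**Figure D4:**
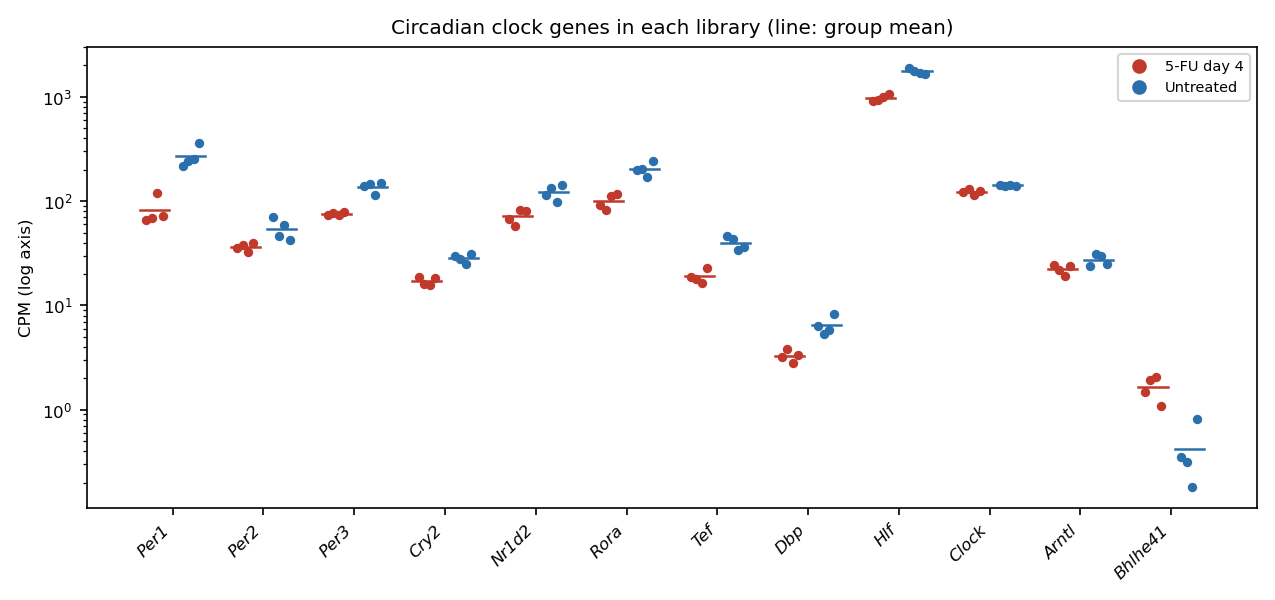
CPM (log axis) of 12 circadian clock genes in each library, with 5-FU day 4 in red left of untreated in blue and a line at each group mean. Per1 lies at 65.8 to 119 CPM after 5-FU and 219 to 358 CPM in untreated HSCs, Clock and Arntl lie close together in both groups, and Bhlhe41 is higher after 5-FU.

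Nuclear receptors, transcription factors switched by hormones, lipids and vitamins, were lower beyond the clock. Of 34 tested, 18 were lower and 1, the retinoic acid receptor Rara, was higher, with a median of -0.59. The estrogen receptor Esr1, through which estrogen drives HSC division in female mice (chromosome 10, 4611989 to 5005633), had 40.4, 38.4, 40.6 and 43.1 CPM in 5-FU HSCs against 113, 93.7, 105 and 95.9 CPM in untreated HSCs (log2 fold change -1.33 ± 0.08, adjusted p = 2.35e-06). The mineralocorticoid receptor Nr3c2 had 3.61, 3.92, 4.30 and 6.18 CPM after 5-FU and 27.4, 20.7, 27.2 and 31.9 CPM in untreated HSCs (log2 fold change -2.57 ± 0.20, adjusted p = 7.04e-06). The groups of both genes were far apart. Thrb, a thyroid hormone receptor, fell by 1.09 and Nr1h2, or LXR beta, by 0.62, whereas the glucocorticoid receptor Nr3c1 had 199 to 235 CPM after 5-FU and 224 to 245 CPM in untreated HSCs, with overlap. Rara averaged 16.3 ± 1.39 CPM after 5-FU and 10.6 ± 2.03 CPM in untreated HSCs. The orphan receptors Nr4a1 and Nr4a2, immediate early genes, fell by 2.49 and 1.82.

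Kruppel-like factors gave 7 lower and 0 higher of 13, with a median of -0.62, and scaling to the RPKM read total called 2 higher. Klf12 had 79.5 to 103 CPM in 5-FU HSCs and 149 to 185 CPM in untreated HSCs, Klf2, a quiescence factor of lymphocytes, averaged 9.31 ± 4.36 CPM after 5-FU and 33.4 ± 11.9 CPM in untreated HSCs, and Klf9 fell by 0.62. Klf6 fell by 0.86 with overlap between the groups. Of 26 Hox, Meis and Pbx genes, 10 were lower and 2 higher, or 5 lower when scaled to the RPKM read total. Pbx3, a cofactor of HOX proteins, averaged 33.8 ± 4.35 CPM after 5-FU and 21.4 ± 3.35 CPM in untreated HSCs and rose by 0.66. Hoxb4, which expands HSCs when overexpressed, fell by 0.76 and Meis1 by 0.46.

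Of 346 zinc finger genes with a Zfp symbol, most of them transcriptional repressors of the KRAB type, 115 were lower and 25 higher, with a median of -0.20. Their median exon length was 4251 bases, against 3504 over all genes, and scaling to the RPKM read total gave 52 lower and 51 higher, while correction for exon length gave 95 lower and 38 higher. Zfp831 (chromosome 2, 174598682 to 174710832) had 68.4, 66.4, 74.4 and 86.6 CPM in 5-FU HSCs against 219, 221, 201 and 228 CPM in untreated HSCs (log2 fold change -1.55 ± 0.08, adjusted p = 2.06e-06), and Zfp672 and Zfp182 fell by 0.75 and 0.82. Zfp521, a factor that restrains differentiation, averaged 85.0 ± 10.2 CPM after 5-FU and 154 ± 18.4 CPM in untreated HSCs. Zfp36, which encodes the mRNA decay factor tristetraprolin, fell by 2.12. Zfp367 rose by 1.38.

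Immune signalling factors were lower at the level of their transcription factors. Of 16 IRF and STAT genes, 9 were lower and 1 was higher, with a median of -0.37. Stat2, a part of the type I interferon complex, had 27.7, 26.1, 37.8 and 42.3 CPM in 5-FU HSCs against 70.2, 68.5, 71.3 and 74.4 CPM in untreated HSCs (log2 fold change -1.08 ± 0.14, adjusted p = 0.000135). Irf9 of the same complex fell by 0.57. Irf2, which shields HSCs from interferon, averaged 107 ± 6.03 CPM after 5-FU and 156 ± 6.65 CPM in untreated HSCs. Stat6, Stat3 and Stat5a fell by 0.63, 0.48 and 0.40. Stat4 rose by 0.16 (adjusted p = 0.0399), a call that was lost in 13 of 19 alternatives.

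Of 20 MHC class I genes, 10 were lower and 4, the immunoproteasome subunits Psmb8 and Psmb9, the trimming peptidase Erap1 and Calr, were higher. Scaling to the RPKM read total turned this balance to 4 lower and 6 higher, while correction for exon length gave 11 lower and 2 higher. The non-classical H2-T23 averaged 118 ± 13.6 CPM after 5-FU and 192 ± 8.53 CPM in untreated HSCs, H2-Q4 fell by 0.71 and the classical H2-K1 by 0.32, a call that scaling to the RPKM read total removed (adjusted p = 0.0675). Many of these genes are close copies that can share reads. Of 12 MHC class II genes, 7 were lower and 0 higher, and 4 were lower without 5-FU replicate 2, without untreated replicate 2 or when scaled to the RPKM read total. Their activator Ciita had 4.13 to 4.55 CPM in 5-FU HSCs and 7.35 to 10.8 CPM in untreated HSCs (log2 fold change -1.16 ± 0.19, adjusted p = 0.000548). The class II chain gene H2-Aa had 8.89, 12.8, 15.3 and 24.1 CPM after 5-FU and 19.4, 48.0, 25.5 and 57.1 CPM in untreated HSCs, and the invariant chain Cd74 had 33.3 to 62.7 CPM after 5-FU and 49.6 to 116 CPM in untreated HSCs, both lower by the test but with overlap. Summed markers of B cells were 10.3 to 22.4 CPM after 5-FU and 20.6 to 34.2 CPM in untreated HSCs, and those of macrophages are given above. Their part in the class II values was not tested.

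Receptors that read the niche were lower more often than not. Of 39 cytokine and growth factor receptors, 23 were lower and 5 higher, with a median of -0.35, and 15 were lower when scaled to the RPKM read total. Receptors of stem and progenitor cells were among them. Flt3, whose protein marks multipotent progenitors, had 12.9, 8.16, 12.8 and 9.65 CPM in 5-FU HSCs against 64.4, 77.4, 28.7 and 30.0 CPM in untreated HSCs (log2 fold change -2.18 ± 0.33, adjusted p = 0.000319). Csf3r, the G-CSF receptor, averaged 74.2 ± 9.86 CPM after 5-FU and 146 ± 4.84 CPM in untreated HSCs. The common gamma chain Il2rg, Il18rap and the erythropoietin receptor Epor rose by 0.40, 0.73 and 1.00. Lifr had 0, 0.106, 0.561 and 7.54 CPM in 5-FU HSCs and 15.5, 62.7, 1.32 and 31.7 CPM in untreated HSCs, and was highest in the same library of each group as Cxcl12.

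Of 92 G protein-coupled receptors, 31 were lower and 7 higher, or 20 lower when scaled to the RPKM read total. Adgrg1, or GPR56, an adhesion receptor of HSCs, had 1043, 971, 1137 and 1054 CPM in 5-FU HSCs against 1914, 1769, 1823 and 1861 CPM in untreated HSCs (log2 fold change -0.81 ± 0.05, adjusted p = 2.35e-06). Gpr171 had 65.2 to 81.0 CPM after 5-FU and 133 to 155 CPM in untreated HSCs. The vesicular monoamine transporter Slc18a2 (chromosome 19, 59260878 to 59296012), had 145, 158, 172 and 152 CPM in 5-FU HSCs against 635, 645, 520 and 590 CPM in untreated HSCs (log2 fold change -1.93 ± 0.08, adjusted p = 1.01e-06). Among the receptors that were higher, the latrophilin Adgrl1 averaged 112 ± 9.47 CPM after 5-FU and 34.2 ± 9.15 CPM in untreated HSCs, and the thrombin receptor F2r rose by 0.96. The feedback regulators Rgs1 and Rgs2, which switch such receptors off, fell by 1.30 and 0.90, the second with overlap.

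The largest falls outside cell cycle and energy genes included Btg2, an antiproliferative gene, at 6.78 to 15.4 CPM in 5-FU HSCs and 167 to 297 CPM in untreated HSCs, and Sox6, a transcription factor, at 11.1 to 19.4 CPM after 5-FU and 59.3 to 108 CPM in untreated HSCs. The growth factor response genes Egr3, Junb, Dusp2 and Ier2 fell by 2.74, 2.67, 2.17 and 2.09.

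Genes shared between HSCs and megakaryocytes were lower more often than higher. Of 20 tested megakaryocyte and platelet markers, 10 were lower and 2, Selp and Cd9, were higher, with a median of -0.68. The integrin Itga2b, or CD41, had 6.22, 6.36, 10.8 and 6.11 CPM in 5-FU HSCs against 27.4, 26.2, 18.2 and 17.0 CPM in untreated HSCs (log2 fold change -1.58 ± 0.24, adjusted p = 0.00032), and its partner Itgb3 averaged 30.4 ± 11.5 CPM after 5-FU and 62.8 ± 9.76 CPM in untreated HSCs. Mmrn1 fell by 0.77 and Plek by 1.35. Vwf, which marks platelet-biased HSCs, had 247 to 317 CPM after 5-FU and 258 to 363 CPM in untreated HSCs, and the platelet chemokine Pf4 had 5.03 to 13.8 CPM after 5-FU and 7.18 to 14.5 CPM in untreated HSCs, both with overlap.

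Chromatin regulators moved in both directions. Polycomb genes silence developmental genes through histone H3 lysine 27 and histone H2A marks. Of 34 tested, 12 were higher (35.3%) and 9 lower (26.5%), not far from the 26.7% and 23.8% of all genes. The counts were 16 and 4 after correction for exon length and 19 and 5 when scaled to the RPKM read total. The catalytic subunits moved in opposite directions. Ezh2, the enzyme of dividing cells (chromosome 6, 47530274 to 47595340), had 167, 168, 172 and 146 CPM in 5-FU HSCs against 56.8, 53.3, 82.6 and 50.3 CPM in untreated HSCs (log2 fold change 1.42 ± 0.14, adjusted p = 2.22e-05). Ezh1, its counterpart in resting cells (chromosome 11, 101191115 to 101226463), had 47.5, 54.0, 52.0 and 56.7 CPM in 5-FU HSCs against 122, 111, 105 and 123 CPM in untreated HSCs (log2 fold change -1.13 ± 0.08, adjusted p = 4.01e-06). The core subunits Eed and Suz12 rose by 0.81 and 0.62 and the histone chaperone Rbbp7 by 0.91.

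The polycomb-like accessory proteins also parted. Phf19, whose promoter is printed above beside that of Suz12, averaged 46.9 ± 4.02 CPM after 5-FU and 18.7 ± 4.86 CPM in untreated HSCs, and its paralog Phf1 had 4.44 to 5.19 CPM after 5-FU and 13.2 to 15.9 CPM in untreated HSCs (log2 fold change -1.57 ± 0.15, adjusted p = 1.77e-05). Cbx7, the reader that keeps HSCs self-renewing, averaged 34.3 ± 5.27 CPM after 5-FU and 77.7 ± 9.01 CPM in untreated HSCs.

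Of 17 DNA methylation genes, 8 were higher (47.1%) and 7 lower (41.2%), or 10 and 2 after correction for exon length and 10 and 4 when scaled to the RPKM read total. The maintenance pair rose: Dnmt1 had 628, 608, 635 and 577 CPM in 5-FU HSCs against 237, 245, 321 and 181 CPM in untreated HSCs, and Uhrf1, which brings it to replicated DNA, averaged 406 ± 58.3 CPM after 5-FU and 94.9 ± 32.9 CPM in untreated HSCs. The de novo enzyme Dnmt3b rose by 0.44, while Dnmt3a had an adjusted p of 0.181, or 0.00231 when scaled to the RPKM read total and 0.00326 after correction for exon length. Tet2, which oxidises methylcytosine and restrains HSC self-renewal, had 94.0, 98.9, 107 and 87.1 CPM in 5-FU HSCs against 157, 163, 167 and 163 CPM in untreated HSCs (log2 fold change -0.75 ± 0.06, adjusted p = 1.06e-05), and the methyl-CpG binding Zbtb4 fell by 1.31.

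Of 43 histone lysine methyltransferases and demethylases, 20 were lower (46.5%) and 12 higher (27.9%), the second near the 26.7% of all genes. This balance turned to 11 lower and 18 higher both when scaled to the RPKM read total and after correction for exon length. Kmt2c, an enhancer methyltransferase, averaged 608 ± 20.9 CPM after 5-FU and 959 ± 11.3 CPM in untreated HSCs (log2 fold change -0.66 ± 0.04, adjusted p = 2.27e-06). The demethylases Kdm7a and Kdm5b fell by 1.2 and 0.90. Whsc1, or NSD2, rose by 0.79 and Suv39h2 by 1.07.

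**Figure D5:**
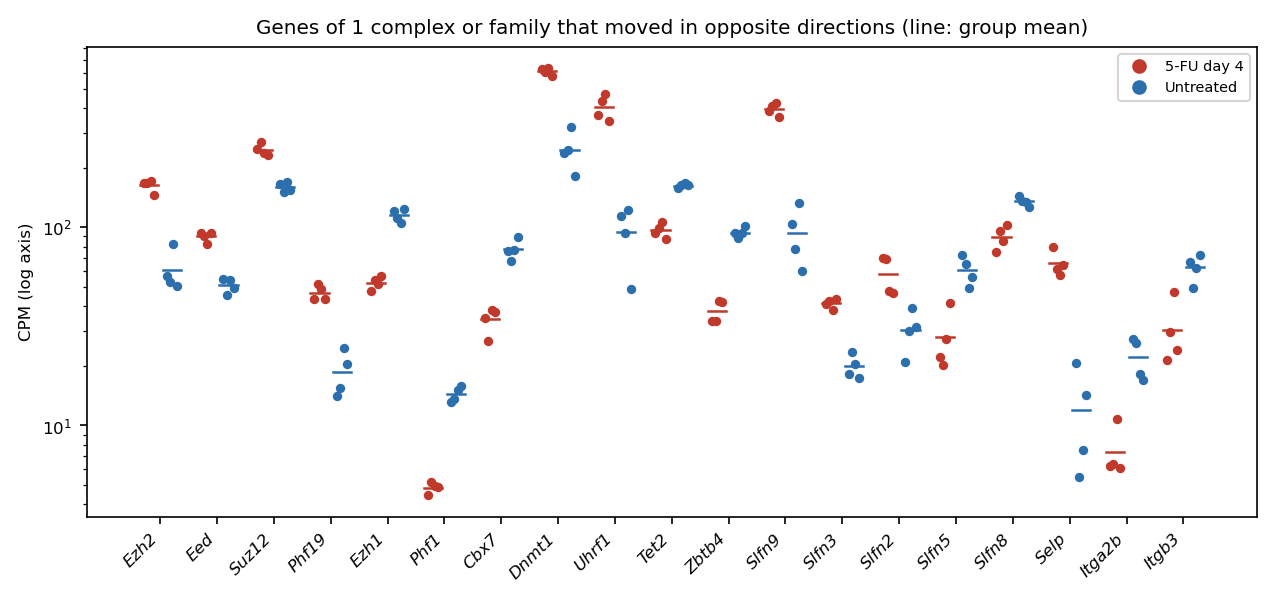
CPM (log axis) in each library, with 5-FU day 4 in red left of untreated in blue and a line at each group mean, for polycomb, DNA methylation, Schlafen, selectin and integrin genes. Ezh2 is higher after 5-FU and Ezh1 lower, Slfn9 higher and Slfn5 lower, and Selp higher and Itga2b lower.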

How the data were processed

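RNA-seq libraries were made from 100 sorted cells each and sequenced on a NextSeq. The authors deposited, per the file headers, a table of exon read counts and RPKM values (reads scaled by exon length and read total) for 48737 features. Coordinates are on mm10, a build named in the submitters' processing notes. The aligner and counter were not given in the sources used here. Counts were used for the tests. From the deposited RPKM came the exon length of each gene and each library's read total. Features of 1923 genes that stood as several copies on alternate scaffolds were summed, which left 46123 genes, and 31 copies stayed split. The 37 mitochondrial features held 0 reads.

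The 4 libraries of 5-FU day 4 and the 4 untreated libraries were compared with edgeR 4.0.16 in R 4.3.3 (TMM scaling, filterByExpr, quasi-likelihood F test, Benjamini-Hochberg adjustment over 13384 genes, threshold 0.05). SE is the log2 fold change divided by the square root of F. CPM was taken on TMM-scaled exon reads. Depth per library is given in the report as ranges and limits the precision of low genes. A simulation on 13288 genes changed 200 of them and gave every gene the common dispersion. It recovered 75% of the 2-fold changes and 15% of the 1.5-fold changes put in, with 3 false calls of 93. In the data 50.5% of genes were called, so these rates need not carry over. Alternatives were limma 3.58.1 voom, DESeq2 1.42.0, other filters, other scalings, a correction for exon length, all 15 libraries in the fit, a replicate block and leaving out libraries. Figures were drawn with matplotlib 3.10.9.

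Members and gene lists were chosen with earlier results of these data known. Genes were named by a rule: per direction, the 12 genes past the threshold that changed most on the log2 scale (at least 50 CPM in the higher group, groups apart, outside cell cycle and energy lists), up to 3 called genes per list by smallest p at 5 CPM or more, and a set of HSC, stromal and 5-FU enzyme genes. Not every gene it gives is described, and 95 genes given here lie outside it and were chosen after their values were seen. A few other genes are not reported here.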

Additional observations from a re-analysis of the deposited data

Results flagged for a closer look

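In 20 of 406 groups of 4 libraries looked at (4.93%), the highest or lowest library stood apart from the other three by a gap that took up more of the whole range than Dixon's 95% critical value allows. Chance alone flags about 5% of such groups.

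Several of them were high values in 5-FU replicate 4. Its mesenchymal marker sum was 448 CPM (gap 0.98 of the range), with the markers Cxcl12 at 290 CPM (1.00) and Lepr at 30.0 CPM (0.97). Lifr, which is not in that marker list, was at 7.54 CPM (0.93), and the part of stromal reads in it was not tested.

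Among the other genes in 5-FU libraries, replicate 4 was low for Hnrnph3 (gap 0.86), F2r (0.84) and Pf4 (0.84). Replicate 3 was high for Per1 (0.89) and Itga2b (0.95) and low for Tcp1 (0.93). Replicate 1 was high for Postn (0.86), and replicate 2 was high for Hbb-bs (0.92) and low for Nr1h2 (0.84).

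In untreated libraries, replicate 3 was high for Kpna2 (0.84), Eif5a (0.84) and Tuba1b (0.96). Replicate 4 was low for Ppat (0.86), Zfp367 (0.88) and Cd48 (0.83), and replicate 1 was high for Il18rap (0.84).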

How the results depend on the processing

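Scaling to the RPKM read total left 1844 genes lower in all, 52 zinc finger genes, 15 cytokine receptors and 11 histone methylation genes lower, and turned the balance of the last list, of integrins (8 lower) and of MHC class I (4 lower). Correction for exon length also gave 11 lower histone methylation genes and moved Clock to 0.03. The cause was not tested. Leaving out 1 library at a time gave 3129 to 3502 genes higher and 2793 to 3322 lower. Without untreated replicate 2 and 5-FU replicate 4, chosen after seeing the data, 3189 were higher and 2836 lower. Of 172 named genes called, 162 kept their call in every alternative that tested them, 19 for most and 18 for low genes that a stricter filter removed. The exceptions were Clock, H2-K1, Per2, Pfdn5, Procr, Psmb8, Psmb9, Sept1, Slfn2 and Stat4. In their deviations from the group means, same-numbered replicates correlated at -0.141 to 0.163, and replicates of different number at -0.453 to 0.384. These values cannot decide whether the numbers pair libraries, because uneven reads of other cells also enter the deviations. A replicate block gave 3395 genes higher and 2936 lower. Low genes are limited by depth, as in Bhlhe41, Dbp and Sept4.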
